A study of Mus musculus with 10 samples.

Results

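Noradrenaline is made, packed, recaptured and degraded by a short chain of enzymes and transporters, and 8 genes of that chain are described here: Th, Ddc and Dbh for synthesis, Slc18a2 and Cyb561 for storage, Slc6a2 for reuptake, and Maoa and Maob for breakdown. The members were taken by gene symbol from the count tables, where each of the 8 symbols names 1 of the 35667 genes. In sympathetic nerve fibres, which run in the outer coat of arteries, tyrosine is turned into L-DOPA, dopamine and noradrenaline in turn, and the last step takes place inside the storage vesicle. Released noradrenaline constricts the vessel, is taken back into the fibre and is then repacked or oxidised by monoamine oxidase at the mitochondrial outer membrane.

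The study sequenced RNA from the aorta of C57BL/6 mice aged 12 weeks. There were 5 libraries labelled knockout (KO) for Ovgp1, the gene of oviductal glycoprotein 1, and 5 labelled wild type (WT). The series title asks about Ovgp1, hypertension and remodelling of the vessel wall. The genotype field names Ovgp1 for KO replicate 1 and Ovgp2 to Ovgp5 for the other KO replicates, while all titles name Ovgp1. No label gives the kind of allele, the sex of the mice, or states whether the replicates were different animals, so p-values measure the spread between these libraries, which may be technical.

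Library totals ran from 24434745 to 26694590 counts in KO and from 21242030 to 24396394 in WT. Ovgp1 itself went against the labels, at 480 to 549 counts under the KO label and 48 to 101 under the WT label, so every direction below follows the labels only. The libraries labelled KO were close to copies of each other. Over 12509 genes, the chi-square per degree of freedom of a pair, which is 1 for counting error alone, was 1.77 to 3.25 for KO pairs and 11 to 154 for WT pairs. For this reason edgeR's quasi-likelihood test of 5 against 5 libraries was repeated with the KO counts summed into 1 sample, which takes its spread from WT alone, and both forms are given for each member. Mitochondrial transcripts took 6.75% to 9.59% of counts in 8 libraries, but 16.2% in WT replicate 1 and 13.2% in WT replicate 3. The smooth muscle gene Myh11 had 7253 to 9360 CPM (counts scaled to a library total of 1000000) in all 10 libraries.

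Of the 8 members, Th, Ddc, Dbh and Slc6a2 were higher in the libraries labelled KO in the test of 5 against 5 libraries, by 4.10- to 25.9-fold. Cyb561 was lower, at 0.77-fold, and Slc18a2, Maoa and Maob did not pass an adjusted p of 0.05. The 4 higher and 1 lower members compare with 6.84% of all 15710 genes tested that were called higher and 7.43% that were called lower. With library totals in place of edgeR's scaling factors, all genes split into 1561 higher and 493 lower instead of 1075 and 1167. The same 4 members were still called higher, and Cyb561 was not called. For those 4 genes every KO library lay above every WT library in CPM, which held for 11.2% of genes tested, and for no member did all KO libraries lie below, against 3.32% of genes. With KO as 1 sample, 0 of 8 members passed over all genes, where 0.0446% of genes did. In that fit the log2 differences were 3.01 for Th, 2.04 for Ddc, 4.72 for Dbh and 2.78 for Slc6a2. All 8 members passed the low-count filter, but these 4 passed it only through the libraries labelled KO: the filter's level was reached by 1 WT library for Th, 0 for Dbh and 4 each for Ddc and Slc6a2. Their count and the members' median log2 difference of 1.10, beside -0.02 over all genes tested, are therefore descriptions.

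**Figure D1:**
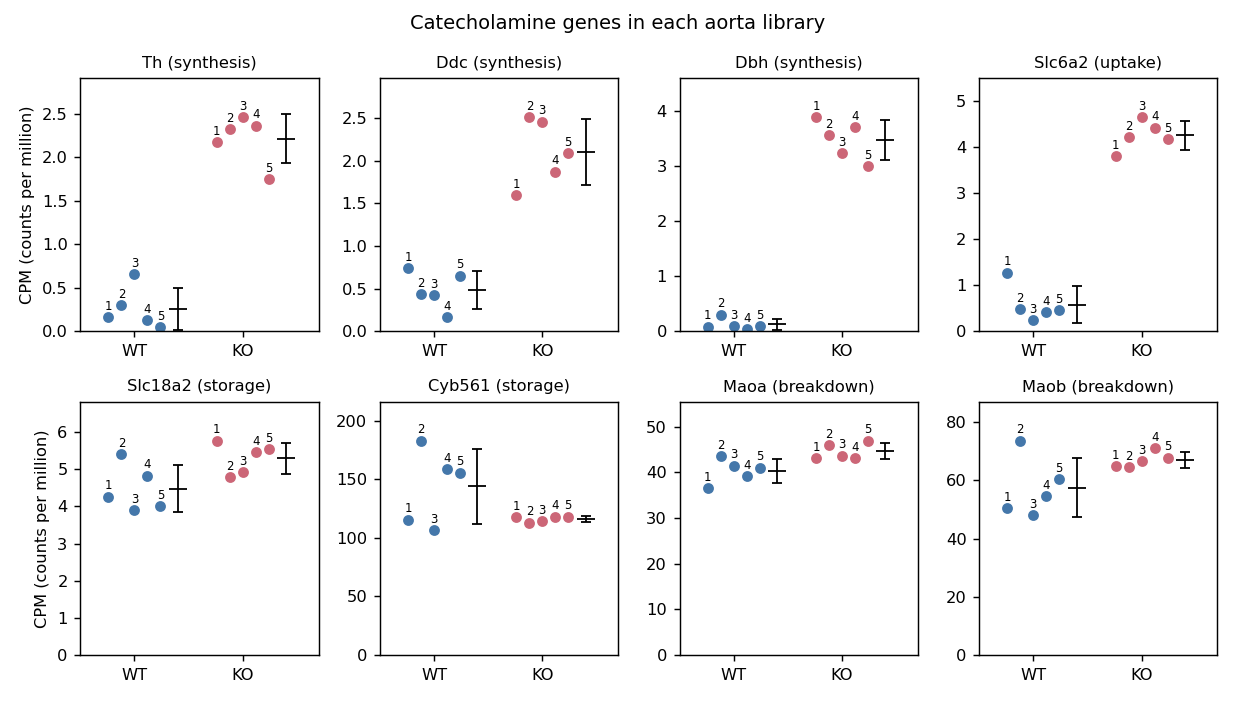
Each panel plots one gene in CPM on a linear axis from 0, with a numbered point per library (blue WT, red KO) and the mean ± SD beside each group (n = 5). In the upper row the KO points of Th, Ddc, Dbh and Slc6a2 lie above all WT points, with Dbh at 3.0 to 3.89 against 0.04 to 0.30 CPM, and in the lower row the groups overlap or, for Maob, WT replicate 2 lies above KO.

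Th encodes tyrosine hydroxylase, the rate-limiting enzyme that turns tyrosine into L-DOPA (ENSMUSG00000000214; chromosome 7, 142892752 to 142931128, minus strand, GRCm38). It had 53, 60, 64, 63 and 46 counts in KO replicates 1 to 5 and 4, 7, 14, 3 and 1 in WT replicates 1 to 5. The KO libraries stayed within counting error of each other, with a chi-square per degree of freedom of 0.94, while WT replicate 3 stood above the other WT libraries and that value was 5.0. In CPM this was 2.21 ± 0.28 against 0.26 ± 0.24 (SD, n = 5 each). On the log2 scale the difference was 3.01 (SE 0.41, edgeR adjusted p = 0.000931), or 8.06-fold with a 95% interval of 4.34 to 14.95. The interval widened to 2.42 to 26.9 with KO as 1 sample (edgeR adjusted p = 0.930). WT replicate 3 moved this value by itself: without it the log2 difference was 3.67, without WT replicate 1 it was 2.92, and without both it was 3.74.

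Sequence around the RefSeq starts of Th and Dbh is shown because these genes encode the first and last enzymes of the chain and were both called higher. RefSeq windows of 300 bases (GRCm38.p6), 250 before and 50 after a transcript start, covered 5 of the 8 members in 6 windows, with 2 for Ddc. They were searched on both strands for the cAMP response element TGACGTCA, for CAATTA, a core of the kind that homeodomain factors bind, for the GC box GGGCGG and for the TATA box TATAAA. Of 32851 windows of that length, 1.79% held the first, 8% the second, 35.7% the third and 13.6% the last. CAATTA was chosen after the sequences had been read. Capitals mark TGACGTCA and CAATTA in the stretch of the Th window before the start of the GENCODE transcript Th-201 (chr7:142900015-142900245, minus strand), and CAATTA in 30 bases of the Dbh window (chr2:27165339-27165368, plus strand). The starts are those of RefSeq, whereas the gene coordinates given here are those of GENCODE, which begin further upstream for both genes. Both stretches therefore lie inside the GENCODE genes, the Dbh stretch within the first exon of GENCODE:
Th: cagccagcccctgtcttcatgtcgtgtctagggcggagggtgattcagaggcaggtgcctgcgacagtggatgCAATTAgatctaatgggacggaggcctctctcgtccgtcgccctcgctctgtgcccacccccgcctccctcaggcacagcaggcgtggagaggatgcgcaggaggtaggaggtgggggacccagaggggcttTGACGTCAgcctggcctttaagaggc
Dbh: gtccatgtgtcattagtgcCAATTAgggga
CAATTA occurred in the windows of Th and Dbh, and not in those of Ddc, Slc18a2 and Maoa. Slc6a2, which was also called higher, had no window, and neither had Cyb561 and Maob. Because the motif was chosen after reading, this difference between members is a description only. TGACGTCA occurred in Th and also in Slc18a2, a member that was not called. Th held 1 GC box and Slc18a2 and Maoa 2 each, and TATAAA was found in 1 of the Ddc windows. A match describes the letters and shows no binding.

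Dbh encodes dopamine beta-hydroxylase, the vesicular enzyme that turns dopamine into noradrenaline and so sets noradrenergic cells apart from dopaminergic ones (ENSMUSG00000000889; chromosome 2, 27165233 to 27183200, plus strand). It had 95, 92, 84, 99 and 79 counts in KO replicates 1 to 5 and 2, 7, 2, 1 and 2 in WT replicates 1 to 5. The groups were far apart, and among WT libraries replicate 2 was the highest. Over the summed counts, 449 against 14, the ratio of CPM was 28.4, with a 95% interval of 16.7 to 52.3 that covers counting error only. The fitted log2 difference was 4.70 (SE 0.31, edgeR adjusted p = 6.78e-06), or 25.9-fold with an interval of 16.3 to 41.4. The fit with KO as 1 sample gave 4.72 (edgeR adjusted p = 0.0644), with an interval of 10.8- to 64-fold. Without WT replicate 2 the log2 difference was 5.33.

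Ddc encodes aromatic L-amino acid decarboxylase, which makes dopamine from L-DOPA and is also used to make serotonin (ENSMUSG00000020182; chromosome 11, 11814101 to 11898144, minus strand). Its counts were 39, 65, 64, 50 and 55 in KO replicates 1 to 5 and 18, 10, 9, 4 and 14 in WT replicates 1 to 5. The lowest KO library, replicate 1, had 1.6 CPM and the highest WT library, also replicate 1, 0.74 CPM. The log2 difference was 2.03 (SE 0.31, edgeR adjusted p = 0.00190), or 4.10-fold with an interval of 2.57 to 6.53. The interval was 1.67 to 10.1 with KO as 1 sample (edgeR adjusted p = 0.999).

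Slc6a2 encodes the noradrenaline transporter, which returns released noradrenaline to the nerve ending (ENSMUSG00000055368; chromosome 8, 92960079 to 93001667, plus strand). It had 93, 109, 121, 118 and 110 counts in KO replicates 1 to 5, and 31, 11, 5, 10 and 10 in WT replicates 1 to 5. WT replicate 1 thus had more than the other WT libraries and still less than any KO library. The levels were 4.25 ± 0.31 and 0.57 ± 0.40 CPM (SD, n = 5 each). Fitted on all genes, the difference was 2.77 on the log2 scale (SE 0.33, edgeR adjusted p = 0.000441), or 6.84-fold with an interval of 4.16 to 11.3. Summing KO into 1 sample gave 2.51 to 18.9 (edgeR adjusted p = 0.786). Without WT replicate 1 the log2 difference was 3.36.

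The 4 genes did not rank the WT libraries alike. Th was highest in WT replicate 3, Dbh in WT replicate 2, and Ddc and Slc6a2 in WT replicate 1, and Ddc was lowest in replicate 4 and Slc6a2 in replicate 3. Their chi-square per degree of freedom over the WT libraries was 5.0 for Th, 6.56 for Slc6a2, 2.48 for Ddc and 2.02 for Dbh, where counting error alone gives 1. The share of Dbh in the summed level of Th and Dbh, each as CPM per kb of exon, was 53.5% to 61.2% in KO and 11.1% to 63.7% in WT. In this bulk tissue, fewer cells or fibres of a type and less RNA in each cannot be told apart.

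Of the storage genes, Slc18a2 encodes the vesicular monoamine transporter VMAT2, which loads dopamine, noradrenaline, serotonin or histamine into vesicles and is used by mast cells and platelets as well as neurons (ENSMUSG00000025094; chromosome 19, 59260896 to 59296012, plus strand). Its CPM was 5.77, 4.79, 4.92, 5.47 and 5.54 in KO replicates 1 to 5 and 4.26, 5.41, 3.91, 4.83 and 4.0 in WT replicates 1 to 5. WT replicates 2 and 4 lay within the KO range and the other 3 below it. The log2 difference was 0.16 (SE 0.11, edgeR adjusted p = 0.362), and the interval of the fold, 0.95 to 1.33, ended far below the folds of Th, Dbh and Slc6a2. It was 0.75 to 1.67 with KO as 1 sample. Whether the fold of Slc18a2 differed from that of another member was not tested. The 7 mast cell markers summed to 38.6 to 41.0 CPM in KO and 16.3 to 36.1 in WT. By edgeR 0 of 7 passed the threshold in either direction. At an unadjusted edgeR p under 0.05 there were 2 higher and 2 lower, and DESeq2 called 1 each way. No share over all genes is given for those last counts, which are descriptions. The 5 platelet markers summed to 17.0 to 18.7 CPM in KO and 18.7 to 36.8 in WT, and Ppbp, a platelet chemokine gene, was lower (log2 difference -3.96, edgeR adjusted p = 0.000632), though not with KO as 1 sample (edgeR adjusted p = 0.951). The part of these cells in the Slc18a2 level was not tested. Slc18a2 shares 111 exon bases with Gm29261 on the opposite strand. That gene is not among those counted, so whether its reads fell to Slc18a2 was not tested.

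Cyb561 encodes cytochrome b561, which passes electrons across the vesicle membrane to keep ascorbate available for dopamine beta-hydroxylase (ENSMUSG00000019590; chromosome 11, 105933702 to 105953336, minus strand). It had 113 to 118 CPM in the libraries labelled KO, and 116, 183, 107, 159 and 156 CPM in WT replicates 1 to 5. WT replicates 2, 4 and 5 lay above KO, replicate 1 within the KO range and replicate 3 below it. Its log2 difference was -0.38 (SE 0.11, edgeR adjusted p = 0.0366), or 0.77-fold with an interval of 0.66 to 0.91. This call was kept in 6 of 17 alternatives, among them DESeq2 (DESeq2 adjusted p = 0.0199). Without WT replicates 1 and 3 the log2 difference was -0.53 (edgeR adjusted p = 4.8e-05). The call was lost on leaving out any KO library (edgeR adjusted p 0.0768 to 0.0881), WT replicate 4 (0.0648) or WT replicate 5 (0.0774). It was also lost with the replicate block (0.0659), without the low-count filter (0.161), with library totals (0.138) and with KO as 1 sample (0.999). The summed level of the 5 endothelial markers split the WT libraries alike. It was 181, 504, 133, 594 and 490 CPM in WT replicates 1 to 5 and 260 to 269 CPM in KO. Pecam1 made most of that sum, with 410 CPM in WT replicate 2. For Cdh5, Tie1 and Kdr, WT replicate 2 lay below every KO library, while for Pecam1 and Vwf it lay above them. WT replicates 1 and 3 were also the lowest of WT for the macrophage, fibroblast, platelet, lymphocyte, brown adipocyte and chromaffin lists. The macrophage list summed to 57.4, 143.3, 70.9, 108.5 and 104.5 CPM in WT replicates 1 to 5. The part of any of these cell types in the Cyb561 values was not tested. Cyb561 shares 377 exon bases with Gm9910 on the opposite strand, which had 70 to 119 counts per library beside at least 2266 for Cyb561.

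The breakdown genes Maoa and Maob lie side by side on the X chromosome and encode the monoamine oxidases, of which form A prefers noradrenaline and serotonin and form B phenylethylamine. Maoa (ENSMUSG00000025037; 16619698 to 16687818, plus strand) had 43.2, 46.0, 43.7, 43.2 and 47.0 CPM in KO replicates 1 to 5 and 36.6, 43.5, 41.5, 39.2 and 41.1 CPM in WT replicates 1 to 5. WT replicate 2 lay inside the KO range and the other WT libraries below it. The log2 difference was 0.07 (SE 0.05, edgeR adjusted p = 0.389), with an interval of the fold of 0.97 to 1.13. With KO as 1 sample the interval was 0.87 to 1.26. Maoa thus had the narrowest interval of the 8 members in both fits.

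Maob (ENSMUSG00000040147; 16709282 to 16817366, minus strand) had 64.8, 64.6, 66.6, 71.0 and 67.8 CPM in KO replicates 1 to 5. WT replicates 1 to 5 had 50.5, 73.6, 48.0, 54.6 and 60.5 CPM, with replicate 2 above all KO libraries and the other 4 below them. Its log2 difference was 0.15 (SE 0.08, edgeR adjusted p = 0.270), with an interval of the fold of 0.98 to 1.26, which became 0.82 to 1.5 with KO as 1 sample (edgeR adjusted p = 0.999). Without WT replicate 2 it was 0.25 and passed (edgeR adjusted p = 0.0104), so that library decided the call. As CPM per kb, Maob made up 67.7% to 71.1% of the monoamine oxidase signal in KO and 63.4% to 71.7% in WT, ranges that overlap.

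Levels were compared between genes after division by the merged length of all annotated exons. That length can exceed the length of the transcripts expressed, so the order of genes depends on this divisor. In WT the order of mean CPM per kb was Cyb561 (39.4), Maob (20.6), Maoa (9.69), Slc18a2 (0.86), Th (0.11), Ddc (0.11), Slc6a2 (0.09) and Dbh (0.05). In KO it was Cyb561 (31.9), Maob (24), Maoa (10.7), Dbh (1.29), Slc18a2 (1.01), Th (0.94), Slc6a2 (0.68) and Ddc (0.47). Dbh thus stood last in WT and next after Maoa in KO. In WT the last 4 genes lay within their spread, with coefficients of variation of 46.4% to 93.4%, and in KO Slc18a2 and Th lay within theirs (7.94% and 12.7%). Cyb561, Maoa and Maob, which many cell types express, were the 3 most abundant members per kb in each group.

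**Figure D2:**
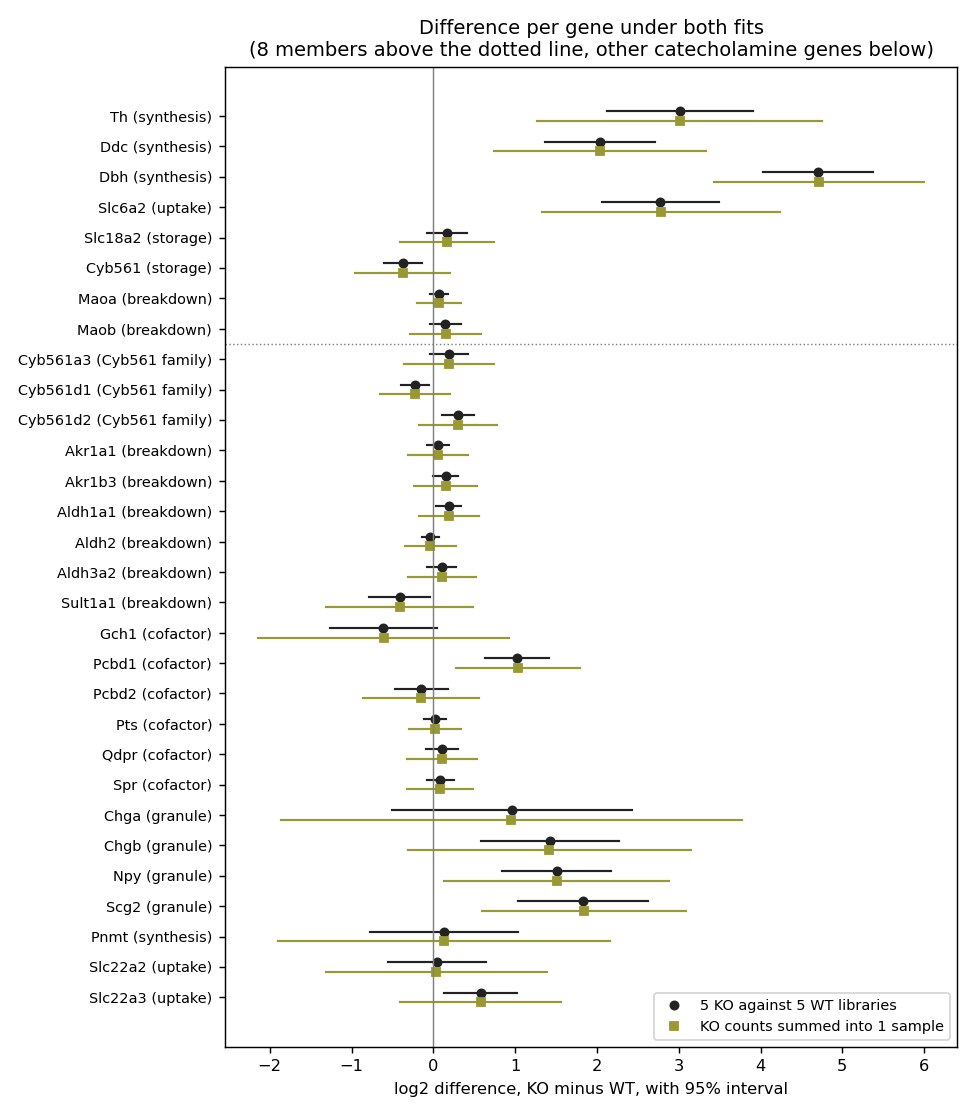
Points give the log2 difference per gene, KO minus WT, and lines its 95% interval, for 5 against 5 libraries (black circles) and with KO counts summed into 1 sample (olive squares). Th, Ddc, Dbh and Slc6a2 stand at 2.03 to 4.72 to the right of 0 under both fits, while Slc18a2, Cyb561, Maoa and Maob lie between -0.38 and 0.16.

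A further 25 genes of catecholamine handling are given, of which 22 could be tested. Of these, edgeR called 5 higher and 0 lower in KO, where 6.84% and 7.43% of all genes tested were called. At an unadjusted edgeR p under 0.05 there were 7 higher and 2 lower, and DESeq2 called 6 and 0. No share over all genes is given for these 2 criteria, here or below, so their counts are descriptions. The median log2 difference of the 22 genes was 0.12, beside -0.02 over all genes tested. The 5 edgeR calls were lost with KO as 1 sample. Without WT replicates 1 and 3 the counts were 11 higher and 3 lower.

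Among them, 3 of the 4 genes for peptides and proteins stored with noradrenaline in large vesicles were higher. Npy, a vasoconstrictor peptide of sympathetic fibres, had 62 to 101 counts in KO and 11 to 43 in WT (log2 difference 1.51, SE 0.31, edgeR adjusted p = 0.00850). Scg2, a granin, had 14 to 37 against 3 to 11 counts (1.83, SE 0.37, edgeR adjusted p = 0.00791). Chgb, another granin, had 30 to 42 against 2 to 19 counts (1.42, SE 0.39, edgeR adjusted p = 0.0306), and its call was lost on leaving out any KO library (0.0501 to 0.0749) or WT replicate 5 (0.0661). Scg2 and Chgb, like Th, Ddc, Dbh and Slc6a2, passed the low-count filter only through the libraries labelled KO, so their calls are descriptions. Chga had 7 to 16 counts in KO and 6, 7, 14, 0 and 0 in WT replicates 1 to 5, and was not called.

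Of the 6 genes for tetrahydrobiopterin, the cofactor of tyrosine hydroxylase, 1 was higher and 0 lower. Pcbd1, which encodes a dehydratase that recycles the cofactor, had 47 to 82 counts in KO and 19 to 34 in WT (log2 difference 1.03, SE 0.18, edgeR adjusted p = 0.00395). Spr and Qdpr, the most abundant of the 6 per kb, did not pass, with log2 differences of 0.08 and 0.11. Gch1, named after its values were seen, encodes the rate-limiting enzyme of cofactor synthesis and had 76 to 103 counts in KO and 44, 117, 61, 164 and 152 in WT replicates 1 to 5. Its log2 difference was -0.61 (edgeR adjusted p = 0.198), and it passed as lower without WT replicate 1 (-0.79, edgeR adjusted p = 0.0342). Pnmt, which makes adrenaline from noradrenaline, had 57 to 71 counts in KO and 30, 41, 110, 25 and 26 in WT replicates 1 to 5 (log2 difference 0.13, edgeR adjusted p = 0.867). It passed as higher without WT replicate 3 (0.81, edgeR adjusted p = 0.0119), the WT library that lay above KO.

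Of 2 tested genes for low-affinity uptake outside nerves, 0 passed by edgeR, while 1 had an unadjusted p under 0.05 and 1 passed by DESeq2, in each case Slc22a3. Slc22a3 had 49.0 to 54.2 CPM in KO and 16.8 to 43.5 CPM in WT (log2 difference 0.58, SE 0.20, edgeR adjusted p = 0.0820). It passed without WT replicate 3 (0.70, edgeR adjusted p = 0.0412). Slc22a2 had a log2 difference of 0.04, which changed sign on leaving out WT replicate 2, 4 or 5. The neuronal dopamine transporter gene Slc6a3 had 0 or 1 count in each library, and Slc18a1, the vesicular transporter of endocrine cells, 0 to 6.

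Of 6 further breakdown genes, 0 passed by edgeR or DESeq2, and 2 had an unadjusted p under 0.05 by edgeR. Akr1a1 and Aldh2, the most abundant per kb, encode enzymes that reduce or oxidise the aldehydes left by monoamine oxidase, and had log2 differences of 0.06 and -0.04. Of 3 relatives of Cyb561, Cyb561d2 was higher (log2 difference 0.30, SE 0.09, edgeR adjusted p = 0.0462). That call was lost on leaving out any KO library (0.0704 to 0.114) or WT replicate 1, 2, 4 or 5 (0.0550 to 0.0781). Cyb561d1 had a log2 difference of -0.22 and did not pass. That gene passed without WT replicate 3 (-0.26, edgeR adjusted p = 0.0387).

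**Figure D3:**
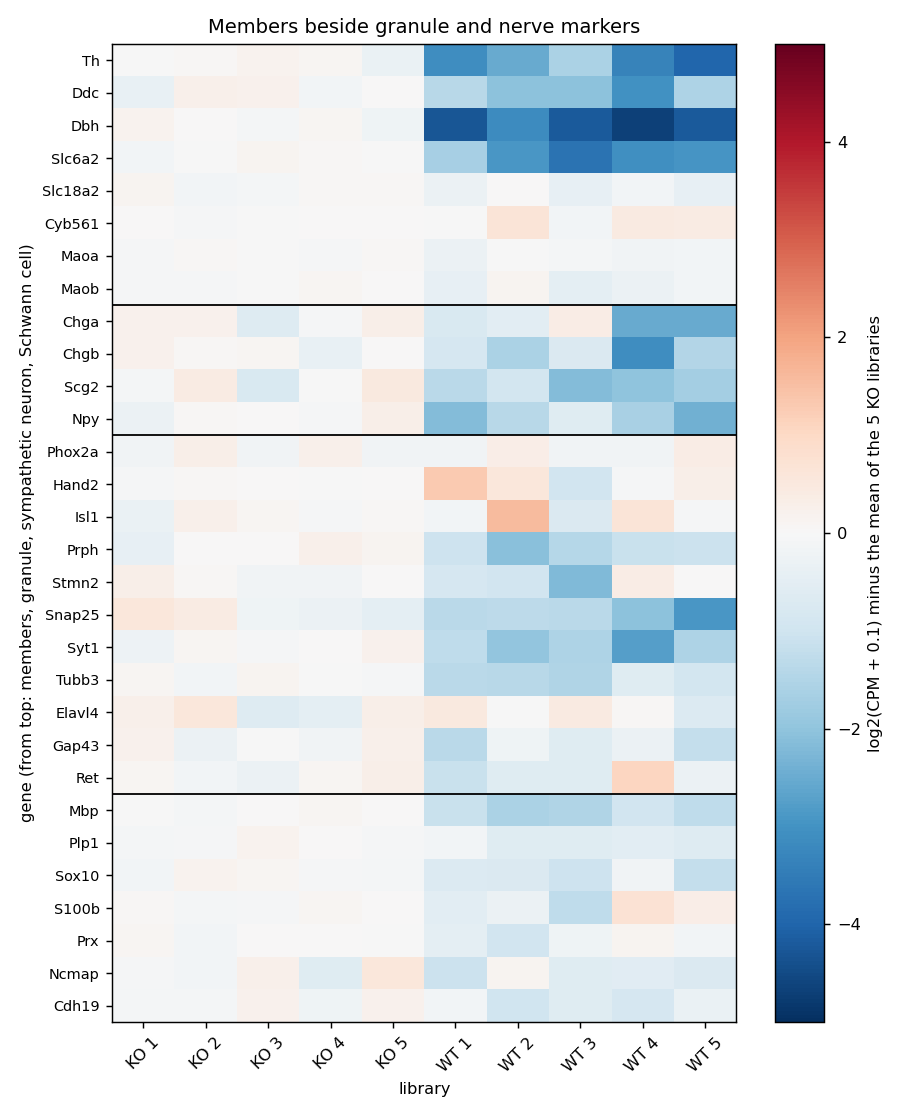
Rows are 30 genes in list order (members, granule, sympathetic neuron and Schwann cell lists) and columns the 10 libraries, and colour is log2(CPM + 0.1) minus the mean of the 5 KO libraries. Blue marks a lower level than in KO: all 5 WT columns are blue for Dbh, Th, Slc6a2, Ddc, Syt1, Prph and Mbp, and near white for Maoa and Slc18a2.

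Some but not most markers of nerve were higher beside Th, Ddc, Dbh and Slc6a2. Of 11 sympathetic neuron markers, 10 were tested and 4 were higher and 0 lower, where 6.84% and 7.43% of all genes tested were called. The higher ones were Syt1 and Snap25, which serve vesicle release, and Prph and Tubb3 of the neuronal cytoskeleton. Syt1 had a log2 difference of 1.98 (edgeR adjusted p = 0.00260) and Prph one of 1.32 (edgeR adjusted p = 0.00438). In WT, Syt1 had 2 to 10 counts and Snap25 1 to 8. Like Th, Ddc, Dbh and Slc6a2, both passed the low-count filter only through the libraries labelled KO, so their calls are descriptions. The summed level of the list was 22.7 to 24.6 CPM in KO and 9.6 to 23.2 CPM in WT. WT replicate 4 thus lay within the KO range and the other WT libraries below it. Stmn2, Ret and Hand2, which were not called, gave most of the sum in WT replicate 4 (6.86, 4.79 and 4.75 CPM). The 4 calls were lost with KO as 1 sample. Phox2a, which encodes a homeodomain factor of noradrenergic neurons, had 0 or 1 count in every library. Hand2 and Isl1, factors of the same cells, did not pass, with log2 differences of -0.51 and -0.58.

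Of 7 markers of Schwann cells, which sheathe nerve fibres, 1 was higher and 0 lower, the myelin gene Mbp (log2 difference 1.19, edgeR adjusted p = 0.000156). For this list and those below, the shares over all genes tested were 6.84% higher and 7.43% lower. With KO as 1 sample 0 of the 7 passed (edgeR adjusted p = 0.617 for Mbp). The list summed to 61 to 67.9 CPM in KO and 33.7 to 56.5 CPM in WT. Of 6 chromaffin cell markers, which share Pnmt, Chga, Chgb and Scg2 with the genes above, 5 were tested and 2 were higher, and 0 passed with KO as 1 sample. The list summed to 37.7 to 40.9 against 29.6 to 36.4 CPM, mostly from Penk, an enkephalin precursor gene that is also expressed outside chromaffin cells (32.5 to 35.7 against 24 to 35.1 CPM). Of 6 adrenal cortex markers 4 were found in the tables. Cyp11b1, specific to that cortex, had 0 or 1 count in each KO library and 0 to 3 in WT. Lists of other cell types differed between the groups as well. All 5 red cell markers were lower, with a sum of 19.6 to 21.9 CPM in KO and 66 to 315 CPM in WT. Of 4 lymphocyte markers tested 2 were higher, the antibody genes Ighm and Jchain, and Ighm passed with KO as 1 sample too (log2 difference 4.07, edgeR adjusted p = 0.0413 in that fit). Higher were also 3 of 6 fibroblast and 2 of 5 macrophage markers. Of these 4 lists no gene but Ighm passed with KO as 1 sample. The part of any of these cell types in the differences of the members was not tested.

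**Figure D4:**
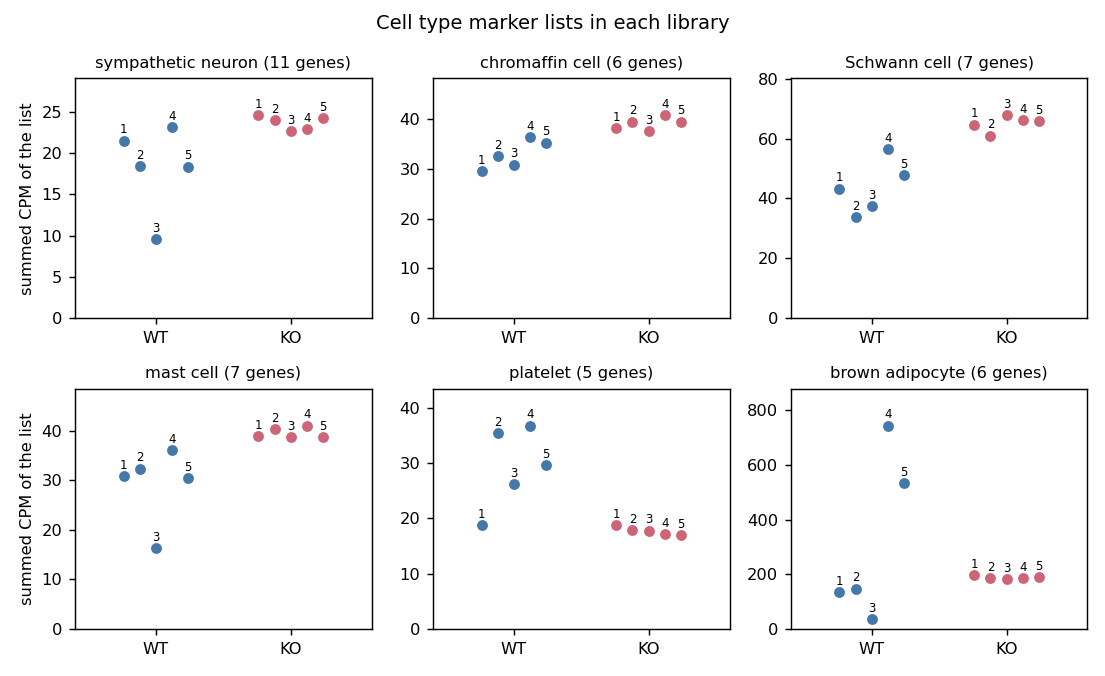
Each panel gives the summed CPM of one marker list, with a numbered point per library (blue WT, red KO) on a linear axis from 0. KO lies above all WT libraries for the chromaffin, Schwann and mast cell lists, WT replicate 4 lies within the KO range for the sympathetic neuron list, and the brown adipocyte list spans 34.6 to 744 CPM in WT with KO at 183 to 196.

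The genes whose pattern came closest to each member were found by the root mean square difference of centred log2 CPM (prior count 2) over the 10 libraries, among 15710 genes. For Dbh they were Igkv19-93, Igkv3-9 and Ighv1-59 (0.34 to 0.45), and for Th Igkv10-96, Igkv3-12 and Ovgp1 (0.45 to 0.59). Most of these encode antibody variable regions, another group of genes with low counts in WT. For Ddc the closest was the synaptic gene Syt1 (0.22), then Clec12a and Slc4a10. Slc6a2 was close to Upk3b (0.48) and Igkv4-59 (0.53). The other members had closer neighbours: Dtx3l, Agk and Zfp454 for Slc18a2 (0.07 to 0.08), Pkp4, Snx5 and Cdk7 for Maoa (0.04), Cd302, Selenop and Rab32 for Maob (0.04 to 0.06), and Rapgef6, Ptprj and Fdft1 for Cyb561 (0.04 to 0.05). Since the KO libraries nearly repeat each other, this likeness rests mostly on the step between groups and on 5 WT libraries.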

How the data were processed

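RNA sequencing libraries of mouse aorta (5 labelled KO, 5 labelled WT) were analysed from the authors' deposited whole-number read counts per Ensembl gene. Bowtie 0.12.2 is named in the submitters' processing notes, as are mm8 and mm9, but not which of these builds was used for what. How reads were counted, on which annotation and with which strand setting is not stated there, so reads of overlapping antisense genes cannot be separated. Coordinates and exon lengths come from GENCODE M21 (GRCm38), matched by identifier for 35562 of 35667 genes.

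CPM are counts scaled to a library total of 1000000. The test was edgeR 4.0.16 (R 4.3.3), quasi-likelihood with robust estimation, TMM factors and filterByExpr (minimum count 10, minimum total 15), fitted on all genes, with Benjamini-Hochberg adjustment and a threshold of 0.05. Standard errors were taken as the size of the log2 difference over the root of F. The code was tested on simulated data. Alternatives were KO summed into 1 sample (same genes), other size factors, no filter, a replicate block, DESeq2 1.42.0, and leaving out libraries. Library totals as the only scaling were added after seeing the data. Precision of low genes is limited by counts, and intervals of ratios cover counting error only.

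The members, gene lists and marker lists were chosen with earlier results of these data known. Named genes are the 8 members, of the other catecholamine genes those past the threshold and the 2 most abundant per kb in each role, and the 3 genes closest in pattern to each member. Other list members are named where their values bear on a member. Some genes of these lists are not reported here and are left out of the lists' counts, sums and medians, though not of the fits.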

Additional observations from a re-analysis of the deposited data

Results flagged for a closer look

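Of 16 groups of 5 libraries (8 members in KO and in WT), 2 held a library that stood apart from the others of its group. The rule, Dixon's, takes the gap to the nearest library over the range of the group. Its rate by chance of about 1 in 20 holds for normally spread values and may not hold for counts this low. Dbh had 0.303 CPM in WT replicate 2, from 7 counts, against 1 or 2 counts in the other WT libraries. Slc6a2 had 1.27 CPM in WT replicate 1, from 31 counts, against 5 to 11 counts in the other WT libraries. Both libraries still lay below every KO library for these genes. Leaving out the library raised the log2 difference from 4.70 to 5.33 for Dbh and from 2.77 to 3.36 for Slc6a2. Leaving out other libraries could lower it, down to 4.46 for Dbh and 2.59 for Slc6a2.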

How the results depend on the processing

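Over 17 alternatives, no member changed direction. The calls of Th, Ddc, Dbh and Slc6a2 were lost in 1 of them, KO summed into 1 sample (log2 differences 3.01, 2.04, 4.72 and 2.78), and Slc18a2 and Maoa stayed uncalled in all 17. Cyb561 kept its call in 6 of 17. It was -0.38 with KO summed, -0.31 with library totals, -0.33 without the filter, -0.36 with the replicate block, and -0.46 to -0.28 on leaving out each library. Maob ranged from 0.10 to 0.25 on leaving out each library, and Th from 2.75 to 3.67. In the same way Ddc ranged from 1.80 to 2.30, Dbh from 4.46 to 5.33 and Slc6a2 from 2.59 to 3.36. Members higher numbered 4 and lower 1, and these were 0 and 0 with KO summed. The lower count was 0 with library totals, without the filter and with the replicate block, and 0 to 1 on leaving out each library. Of the other catecholamine genes, 5 were higher and 0 lower. These were 0 higher with KO summed, 11 higher and 3 lower without WT replicates 1 and 3, and 3 to 7 higher and 0 to 1 lower on leaving out each library.

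Over all genes, 1075 were higher and 1167 lower. There were 7 and 0 with KO summed, 694 and 625 with the replicate block, 2204 and 2182 without WT replicates 1 and 3, 493 lower with library totals, 676 lower without the filter, and 656 to 1374 higher and 626 to 1361 lower on leaving out each library. The cause was not tested. Some other genes changed sign near 0. On leaving out each library Pts ranged from -0.0053 to 0.066, Pnmt from -0.047 to 0.81, Slc22a2 from -0.093 to 0.36 and Aldh2 from -0.044 to 0.0051. Aldh2 was 0.039 with library totals and 0.014 without the filter.

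Correlations between same-numbered libraries, after removing group means, were -0.040 to 0.042. Since the KO libraries nearly repeat each other, these values cannot show whether the replicates were paired. At 1 to 31 counts per WT library, depth limits the size of the differences of Th, Ddc, Dbh and Slc6a2.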
